A study of Homo sapiens with 6 samples.

Results

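The SLC44 family of choline transporter-like genes was followed in LY2 breast cancer cells after depletion of the kinase CDK12. The members were taken by gene symbol and comprised SLC44A1, SLC44A2, SLC44A3 and SLC44A4, that is, 4 of the 17939 genes in the expression table, and 3 of these 4 averaged 1 FPKM or more and entered the genome-wide test. SLC44A4 was below that level and was not tested. The family was taken up because of how SLC44A3 differed between these same libraries, so the differences of its members between siCDK12 and siCtrl are given as a description, with no test. The fifth human gene of the family, SLC44A5, was not among the members and is given beside them.

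LY2 is an estrogen receptor-positive (ER+) derivative of the MCF-7 line with acquired endocrine resistance. Cells were transfected either with an siRNA pool directed against CDK12 (siCDK12, 3 libraries) or with a non-targeting pool (siCtrl, 3 libraries), each at 30 nmol/L, and were harvested after 48 hours. Both groups had been cultured with 4-hydroxytamoxifen in charcoal-stripped serum and were deprived of serum and of 4-hydroxytamoxifen before transfection. The values are FPKM, fragments normalised for transcript length and library total, from 1 cell line, 1 siRNA pool and 1 time point.

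SLC44 proteins span the plasma membrane and the membranes of organelles and are named for the choline that the best known of them carry without sodium. Choline taken up by a cell is phosphorylated and passed through CDP-choline into phosphatidylcholine, the main phospholipid of its membranes, and a smaller part is oxidised to betaine in mitochondria. The family is uneven in what is known: SLC44A1 and SLC44A2 are carriers of choline and ethanolamine, SLC44A4 is best known as the carrier of thiamine pyrophosphate in the colon, and the substrates of SLC44A3 and SLC44A5 are poorly defined.

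Across the 6 libraries, between 11488 and 11538 genes reached 1 FPKM, and the summed FPKM lay between 448633 and 461038. The depth of each library could not be read from values rounded to 2 decimals, so no counting interval is given, and low values carry the most uncertainty. The level of CDK12 itself was 2.23, 2.83 and 2.44 FPKM with siCDK12, against 11.17, 10.7 and 10.3 FPKM with siCtrl. All 8 luminal epithelial markers were above 1 FPKM, and their summed level was 5257 to 5373 FPKM with siCDK12, against 4830 to 4868 FPKM with siCtrl. By limma, 4 of the 8 were called higher and 1, ESR1, lower, beside 16.1% and 12.3% of all tested genes. Of 3 basal markers, KRT14 was listed at 0 in every library and the sum was 1.57 to 1.76 FPKM with siCDK12, against 1.99 to 2.2 FPKM with siCtrl. Nearly all of that sum was TP63, which was called lower (log2 fold change -0.32, limma adjusted p = 0.0355). The fibroblast markers summed to 10.6 to 11.1 FPKM with siCDK12, against 7.74 to 8.55 FPKM with siCtrl. Nearly all of this was COL1A1, which was called higher (log2 fold change 0.45, limma adjusted p = 0.000269), while COL1A2 did not exceed 0.02 FPKM in any library. Leukocyte markers summed to at most 0.45 FPKM and endothelial markers to at most 0.23 FPKM, with CD3E and CDH5 at 0 throughout. The part of these marker differences in the SLC44 values was not tested.

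SLC44A3 had the most different transcript level of the family, and it was lower in every siCDK12 library. SLC44A3 (gene ID 126969, chromosome 1, 94820357 to 94895247, GRCh38) was measured at 0.45, 0.69 and 0.91 FPKM in siCDK12 replicates 1, 2 and 3, against 2.38, 2.18 and 2.09 FPKM in siCtrl replicates 1, 2 and 3. The highest siCDK12 library was thus below the lowest siCtrl library. Means were 0.683 ± 0.23 FPKM with siCDK12 and 2.22 ± 0.148 FPKM with siCtrl (SD, n = 3 each), a ratio of means of 0.308. In bulk RNA of this kind, fewer cells that hold a transcript and less of it per cell cannot be told apart.

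On the log2(FPKM + 0.1) scale the SLC44A3 difference was -1.61 (SE 0.196), which ranked 6 from the most negative of the 11533 genes tested. The log2 fold change was -1 or below for 31 of these genes and at least 1 for 20, and the median over all of them was 0.03. With a pseudocount of 1 FPKM in place of 0.1 the SLC44A3 value was -0.94, so its size depends on the scale. Leaving out 1 library at a time gave values from -1.81 to -1.37. SLC44A3 averaged 0.683 FPKM with siCDK12, so it passed the filter of 1 FPKM only through its siCtrl mean of 2.22 FPKM. The family was taken up because of this gene, so its rank is a description and not a test.

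The 3 siCDK12 libraries also varied more for SLC44A3 than the siCtrl libraries did. The coefficient of variation was 33.7% with siCDK12 and 6.70% with siCtrl. SLC44A3 ranked at the 33.3 percentile of all genes in the table by mean level with siCDK12 and at the 42.2 percentile with siCtrl. Among the siCDK12 libraries SLC44A3 was lowest in replicate 1 and highest in replicate 3, while CDK12 was lowest in replicate 1 and highest in replicate 2.

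**Figure D1:**
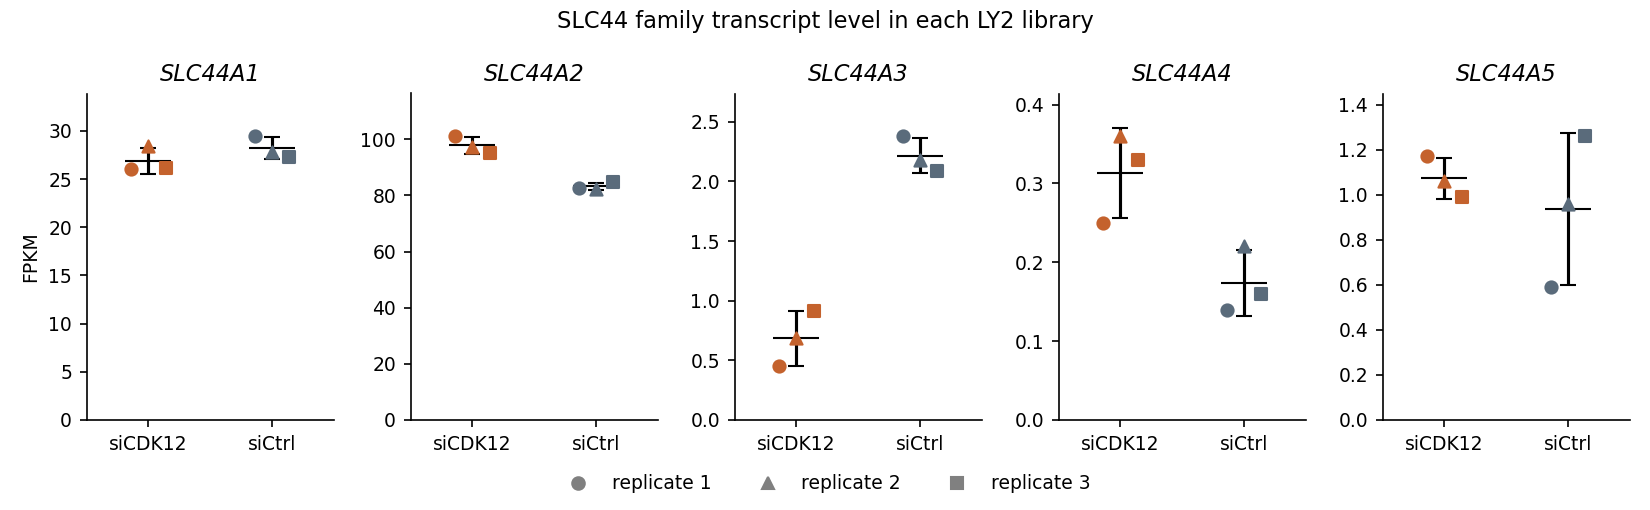
FPKM of SLC44A1, SLC44A2, SLC44A3, SLC44A4 and SLC44A5 in each of the 3 siCDK12 and 3 siCtrl libraries, with points for libraries, horizontal lines for means and bars for 1 SD, each panel on its own linear axis from 0. The SLC44A3 points lie between 0.45 and 0.91 FPKM with siCDK12 and between 2.09 and 2.38 FPKM with siCtrl, whereas the SLC44A1 groups overlap.

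SLC44A2, a choline and ethanolamine carrier of the plasma membrane and mitochondria that also bears a neutrophil antigen, was the most abundant member and was slightly higher with siCDK12. SLC44A2 (gene ID 57153, chromosome 19, 10602455 to 10644557, GRCh38) reached 101.17, 97.23 and 95.2 FPKM with siCDK12, against 82.65, 82.36 and 84.66 FPKM with siCtrl. Every siCDK12 library lay above every siCtrl library. Means were 97.9 ± 3.04 FPKM with siCDK12 and 83.2 ± 1.25 FPKM with siCtrl (SD, n = 3 each), a ratio of 1.18, and the log2 fold change was 0.23 (SE 0.0351). Of all tested genes, 89.3% had a lower log2 fold change than SLC44A2, and its value ranged from 0.21 to 0.25 over 16 alternative settings.

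SLC44A1, the choline carrier of this family that is active in most tissues, differed little. SLC44A1 (gene ID 23446, chromosome 9, 105244651 to 105438504, GRCh38) was measured at 26.05, 28.44 and 26.1 FPKM with siCDK12, against 29.46, 27.79 and 27.28 FPKM with siCtrl. The groups overlapped, since siCDK12 replicate 2 was above siCtrl replicates 2 and 3. Means were 26.9 ± 1.37 FPKM with siCDK12 and 28.2 ± 1.14 FPKM with siCtrl (SD, n = 3 each), with a log2 fold change of -0.07 (SE 0.0482). A larger absolute fold change was found in 64.4% of tested genes.

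SLC44A4 was close to the lower end of the measurable range. SLC44A4 (gene ID 80736, chromosome 6, 31863192 to 31878997, GRCh38) was listed at 0.25, 0.36 and 0.33 FPKM with siCDK12, against 0.14, 0.22 and 0.16 FPKM with siCtrl. The groups did not overlap, but siCDK12 replicate 1 and siCtrl replicate 2 were only 0.03 FPKM apart. Means were 0.313 ± 0.0569 FPKM with siCDK12 and 0.173 ± 0.0416 FPKM with siCtrl (SD, n = 3 each), a ratio of 1.81. The log2 fold change was 0.60 (SE 0.176) in a fit without the level filter, 0.16 with a pseudocount of 1 FPKM and 0.83 with a pseudocount of 0.01 FPKM.

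SLC44A5, the remaining family gene, overlapped between the groups. SLC44A5 (gene ID 204962, chromosome 1, 75202129 to 75724015, GRCh38) was measured at 1.17, 1.06 and 0.99 FPKM with siCDK12, against 0.59, 0.96 and 1.26 FPKM with siCtrl. Both the lowest and the highest of these 6 values were siCtrl libraries, and the coefficient of variation was 8.45% with siCDK12 and 35.8% with siCtrl. The difference was 0.23 on the log2 scale (SE 0.221, limma adjusted p = 0.468), and -0.04 without siCtrl replicate 1.

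Of the 4 members, 3 had groups that did not overlap: SLC44A2 and SLC44A4 were higher and SLC44A3 was lower with siCDK12. Among all tested genes the groups did not overlap for 43.1%, and nothing is read from the members' count, since the members were taken up with this contrast known. Genes called at a limma adjusted p under 0.05 made up 28.3% of all tested genes, 16.1% higher and 12.3% lower with siCDK12. Of 358 other solute carrier genes in the table, 194 were tested and 57 of these, or 29.4%, were called, 25 (12.9%) higher and 32 (16.5%) lower, while the groups did not overlap for 46.4% of the 194. SLC44A3 prompted the choice of family and passed the level filter only through siCtrl, so its place beside the 194 is a description. None of the 194 had a log2 fold change as low as SLC44A3. The most negative among them was -0.53 for SLC37A1, a glucose-6-phosphate antiporter gene picked out after its value was seen, with 30.2 ± 1.85 FPKM with siCDK12 and 43.7 ± 0.716 FPKM with siCtrl (SD, n = 3 each).

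**Figure D2:**
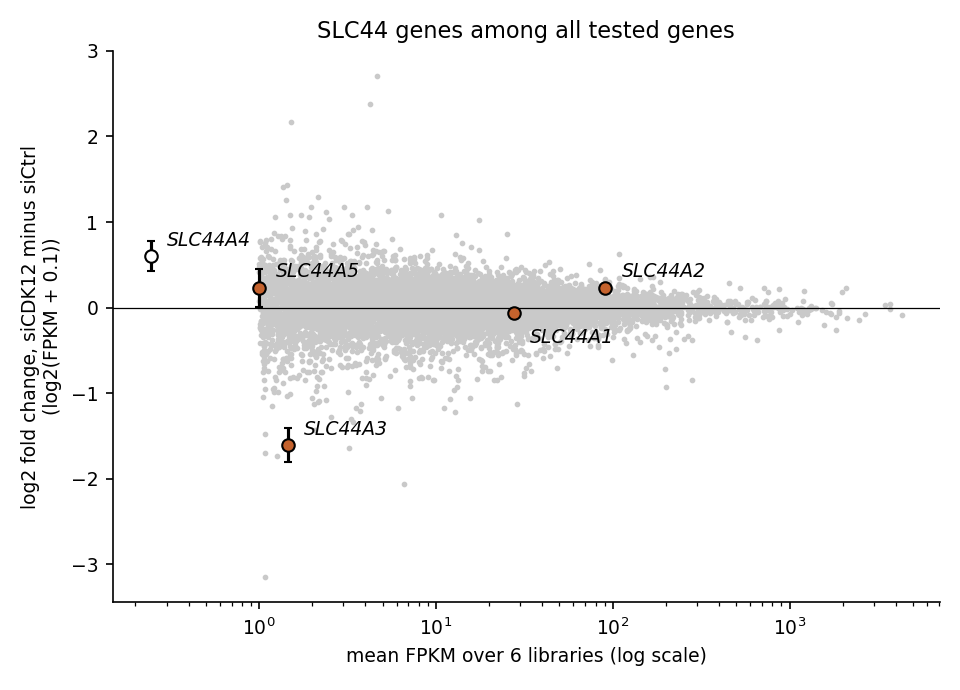
Log2 fold change of siCDK12 minus siCtrl on the log2(FPKM + 0.1) scale (vertical axis) against mean FPKM over the 6 libraries (horizontal log axis) for the 11533 tested genes in grey and the SLC44 genes with bars of 1 SE, the open point marking SLC44A4, which was not tested. SLC44A3 at -1.61 lies near the lower edge of all genes, and SLC44A1 at -0.07 and SLC44A2 at 0.23 lie within the bulk.

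The order of the levels within the family differed between the groups at 1 place. FPKM is set per transcript length, so that levels of different genes can be placed side by side. In siCDK12 libraries the order was SLC44A2, SLC44A1, SLC44A5, SLC44A3 and SLC44A4 from high to low, and in siCtrl libraries SLC44A3 stood above SLC44A5. No neighbours in either order overlapped over the 3 libraries. The ratio of SLC44A3 to SLC44A5 level was 0.385, 0.651 and 0.919 in siCDK12 replicates 1, 2 and 3, against 4.03, 2.27 and 1.66 in siCtrl replicates 1, 2 and 3. This ratio was below 1 in every siCDK12 library and above 1 in every siCtrl library.

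**Figure D3:**
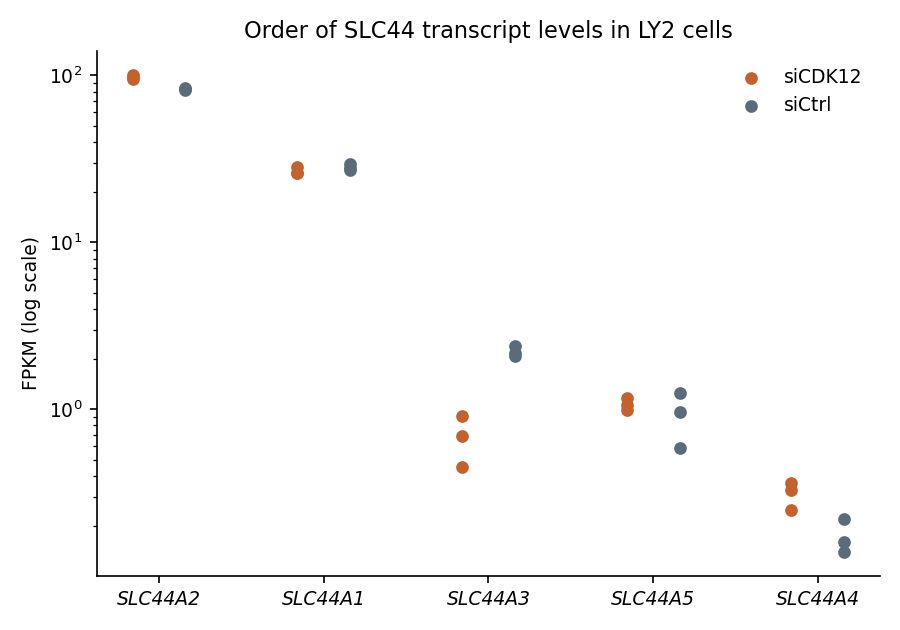
FPKM of the 5 SLC44 genes on a log axis, 1 point per library, with the 3 siCDK12 libraries left of the 3 siCtrl libraries for each gene. SLC44A2 and SLC44A1 lie above 26 FPKM in both groups, and SLC44A3 lies below SLC44A5 with siCDK12 and above it with siCtrl.

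SLC44A2 and SLC44A1 carried nearly all of the family's transcript, so SLC44A3 weighed little in the summed level. The sum was higher with siCDK12, as SLC44A2 was, while SLC44A1 differed little. The 4 members summed to 127.92, 126.72 and 122.54 FPKM with siCDK12, against 114.63, 112.55 and 114.19 FPKM with siCtrl. SLC44A2 made up 77.8 ± 1.19% of this sum with siCDK12 and 73.1 ± 1.02% with siCtrl, and SLC44A1 made up 21.4 ± 1.04% with siCDK12 and 24.8 ± 0.907% with siCtrl (SD, n = 3 each). SLC44A3 contributed 0.546 ± 0.195% with siCDK12 and 1.95 ± 0.123% with siCtrl. The ratio of SLC44A2 to SLC44A1 level was 3.65 ± 0.232 with siCDK12 and 2.96 ± 0.149 with siCtrl, and its lowest siCDK12 value of 3.42 was above its highest siCtrl value of 3.10.

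The genes that share the substrates of this family moved in both directions. Of 56 listed genes of choline uptake, the CDP-choline and ethanolamine routes, phosphatidylcholine turnover, choline oxidation, sphingomyelin, acetylcholine and thiamine handling, 54 were in the table and 40 were tested. With siCDK12, 6 of the 40 rose and 5 fell, or 15% and 12.5%, beside 16.1% and 12.3% of all tested genes, and 29 did not pass the test. The median log2 fold change of the 40 genes was 0.03, the same to 2 decimals as over all tested genes. These shares are near the background, so the calls are not a result about the lists as a whole.

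Among the other choline carriers, FLVCR2 rose. FLVCR2, a choline carrier known from brain endothelium, stood at 5.58, 5.78 and 4.96 FPKM with siCDK12, against 3.81, 4.48 and 3.91 FPKM with siCtrl, and the groups did not overlap. It differed by 0.41 on the log2 scale (SE 0.0845, limma adjusted p = 0.00481). Its paralogue FLVCR1, a widely active choline importer, had means of 2.00 ± 0.04 FPKM with siCDK12 and 1.90 ± 0.0751 FPKM with siCtrl (SD, n = 3 each; log2 fold change 0.07, limma adjusted p = 0.601). SLC5A7, the high-affinity choline carrier of cholinergic neurons, and the organic cation carriers SLC22A2 and SLC22A3 were listed at 0 in every library. Of the choline carrier genes named here, SLC44A1 and SLC44A2 alone had more than 10 FPKM.

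In the CDP-choline route, which builds phosphatidylcholine, 1 of 5 tested genes fell and the other 4 did not pass the test. CHPT1, the cholinephosphotransferase, stood at 75.54, 74.17 and 71.13 FPKM with siCDK12, against 88.41, 90.99 and 99.23 FPKM with siCtrl. Every siCDK12 library was below every siCtrl library, with a log2 fold change of -0.33 (SE 0.0458, limma adjusted p = 0.00045). The choline kinase genes CHKA and CHKB had log2 fold changes of 0.12 and 0.13 (limma adjusted p = 0.187 and 0.153). PCYT1A, whose product makes CDP-choline, had -0.07 and CEPT1, which accepts choline and ethanolamine, had -0.08 (limma adjusted p = 0.297 and 0.291). PCYT1B did not exceed 0.08 FPKM and was not tested.

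In the ethanolamine arm, 1 of 6 tested genes fell and none rose. ETNK1, an ethanolamine kinase, was at 7.42, 6.93 and 5.91 FPKM with siCDK12, against 9.08, 8.7 and 10.95 FPKM with siCtrl (log2 fold change -0.50, SE 0.0977, limma adjusted p = 0.00372). Its paralogue ETNK2 averaged 31.2 ± 2.26 FPKM with siCDK12 and 32.6 ± 0.58 FPKM with siCtrl (SD, n = 3 each; log2 fold change -0.06, limma adjusted p = 0.395).

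Of 12 tested genes of phosphatidylcholine turnover, 2 rose and 1 fell. LPCAT3, which reacylates lysophosphatidylcholine, averaged 24.2 ± 0.726 FPKM with siCDK12 and 19.5 ± 1.29 FPKM with siCtrl (SD, n = 3 each; log2 fold change 0.32, limma adjusted p = 0.00141). PLA2G15, the lysosomal phospholipase A2, averaged 13.1 ± 0.245 FPKM with siCDK12 and 9.96 ± 0.23 FPKM with siCtrl (log2 fold change 0.39, limma adjusted p = 0.000179). PNPLA6, which strips both acyl chains from phosphatidylcholine, had a log2 fold change of -0.21 (limma adjusted p = 0.019). That call was lost without siCDK12 replicate 2 or 3 or siCtrl replicate 1 or 2 (adjusted p = 0.065, 0.0573, 0.0558 and 0.0706).

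Both tested genes of choline oxidation rose. CHDH, the mitochondrial choline dehydrogenase, was at 6.97, 6.72 and 6.31 FPKM with siCDK12, against 4.92, 5.59 and 5.18 FPKM with siCtrl, with no overlap (log2 fold change 0.35, SE 0.0689, limma adjusted p = 0.00405). ALDH7A1, which oxidises betaine aldehyde among other aldehydes, had a log2 fold change of 0.17 (limma adjusted p = 0.0208). The ALDH7A1 call was lost without siCDK12 replicate 2 or 3 or siCtrl replicate 3 (adjusted p = 0.0587, 0.0668 and 0.064). BHMT and DMGDH, the next enzymes of the betaine route, were listed at 0 in every library.

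In the sphingomyelin list SMPD3 was the 1 call among 7 tested genes. SMPD3, a neutral sphingomyelinase gene, averaged 1.96 ± 0.246 FPKM with siCDK12 and 1.47 ± 0.07 FPKM with siCtrl (SD, n = 3 each; log2 fold change 0.39, limma adjusted p = 0.0338). The adjusted p was 0.1, 0.115, 0.0572, 0.0951 and 0.0596 without siCDK12 replicates 1 and 2 and siCtrl replicates 1, 2 and 3, and 0.068 with no level filter. ACHE, which breaks down acetylcholine, had a log2 fold change of 0.06 (limma adjusted p = 0.56).

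The thiamine list was included for the substrate of SLC44A4, and THTPA fell. THTPA, the thiamine triphosphatase, averaged 10.5 ± 0.133 FPKM with siCDK12 and 13.9 ± 0.339 FPKM with siCtrl (SD, n = 3 each; log2 fold change -0.40, limma adjusted p = 0.000143). The groups did not overlap. The thiamine carrier gene SLC19A2 had a log2 fold change of 0.01 (limma adjusted p = 0.921), and SLC19A3 did not exceed 0.02 FPKM.

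**Figure D4:**
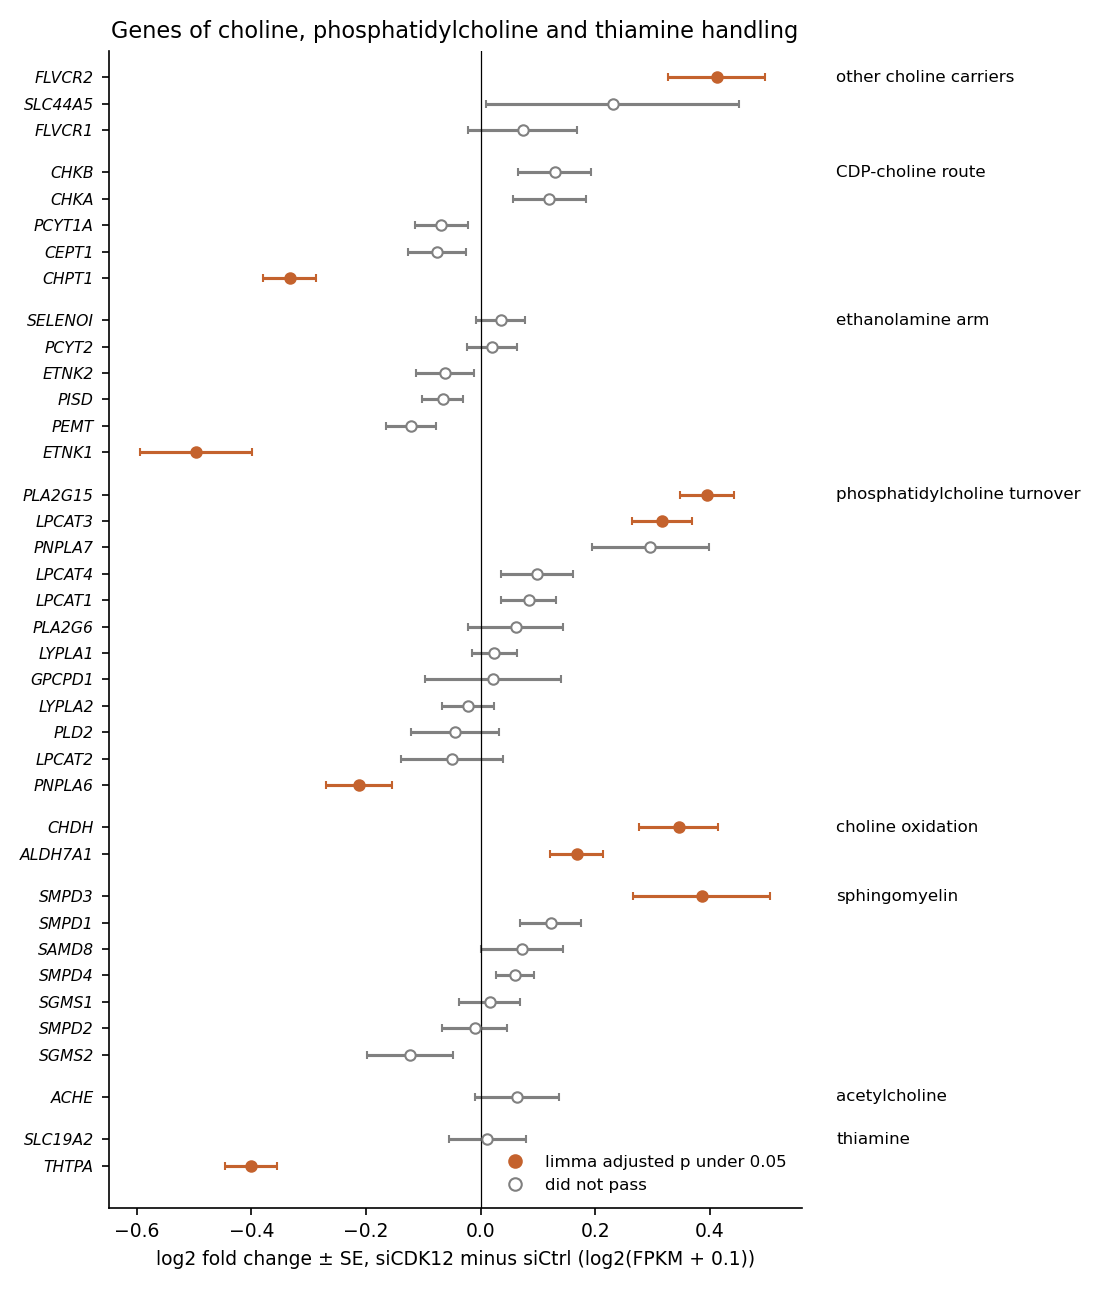
Log2 fold change of siCDK12 minus siCtrl on the log2(FPKM + 0.1) scale, with bars of 1 SE, for 38 of the 40 tested genes of choline, phosphatidylcholine and thiamine handling, grouped by list, filled where the limma adjusted p was under 0.05. The filled points are spread over the lists, from -0.50 for ETNK1 to 0.41 for FLVCR2, and the other 2 tested genes are not reported here.

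The 3 nearest tested genes on each side of each member gave 24 genes, of which 2 were higher and 3 lower with siCDK12, beside 16.1% and 12.3% of all tested genes, with a median log2 fold change of -0.05. Nothing about the neighbours as a group is read from so few calls. None of the 6 neighbours of SLC44A3 was called, and their log2 fold changes ran from -0.25 for ALG14 to 0.13 for RWDD3. None of the 6 neighbours of SLC44A1 was called either, with values from -0.18 to 0.02. The distances were unlike, by lowest coordinate up to 3711 kb for SLC44A1 and 935 kb for SLC44A3. They were at most 116 kb for SLC44A2 and 36.4 kb for SLC44A4.

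Beside SLC44A4, the lysosomal sialidase gene NEU1 spans 31857659 to 31862821, at lower coordinates than SLC44A4, which begins at 31863192. NEU1 stood at 33.19, 30.12 and 33.11 FPKM with siCDK12, against 47.98, 47.42 and 49.15 FPKM with siCtrl (log2 fold change -0.58, SE 0.0446, limma adjusted p = 1.27e-05). NEU1 fell while the FPKM of SLC44A4 was higher, and ZBTB12 on the other side of SLC44A4 rose (log2 fold change 0.28, limma adjusted p = 0.00245). Beside SLC44A2, the cell cycle inhibitor gene CDKN2D rose (log2 fold change 0.30, limma adjusted p = 0.00637) and AP1M2, a subunit of an epithelial clathrin adaptor, fell (log2 fold change -0.26, limma adjusted p = 0.000696). DNM2, which encodes a dynamin, also fell there (log2 fold change -0.13, limma adjusted p = 0.0378). The DNM2 call was lost without siCDK12 replicate 2 or 3 or any 1 of siCtrl replicates 1, 2 and 3 (adjusted p = 0.137, 0.0898, 0.0638, 0.0539 and 0.105), and with no level filter (0.0688) or no variance trend (0.0934).

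The genes with the profile most like that of SLC44A3 were sought among the tested genes. The measure was the root mean square difference of centred log2(FPKM + 0.1) values over the 6 libraries, where 0 is an identical profile. IQCG, a gene of motile cilia, was nearest at 0.174, with 0.75, 0.9 and 1.71 FPKM with siCDK12, against 3.11, 3.16 and 2.8 FPKM with siCtrl. In both IQCG and SLC44A3, siCDK12 replicate 1 was the lowest library and siCDK12 replicate 3 the highest of its group. NPIPB9 followed at 0.307 and CDK12 at 0.322, and NPIPB9 belongs to a family of near-identical copies between which reads may be shared. SLC44A4 is itself below the level filter, so genes as low as it were not searched, and its profile depends on the pseudocount. Its nearest profiles were those of DENND6B at 0.0893, KRTAP5-2 at 0.0974 and ENO3 at 0.109, all of them higher with siCDK12. KRTAP5-2 also belongs to a family of close copies. The likest genes were chosen by their likeness over 6 libraries of 1 contrast, so their direction is fixed by that choice. A shared order of libraries within a group, as in IQCG and SLC44A3, is favoured by the same choice and is not a separate observation.

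Each SLC44 value is a gene level that pools the transcripts of a locus. The table listed 8 transcripts for SLC44A3, 3 for SLC44A1, 3 for SLC44A4 and 2 for SLC44A2, and levels of single transcripts were not used here. Whether reads were counted by strand is not given in the sources used here, and the antisense gene SLC44A3-AS1 had no row among those used.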

How the data were processed

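RNA of 6 LY2 cultures (3 siCDK12, 3 siCtrl, which the study calls biological replicates) was sequenced in paired ends on the BGISEQ-500 platform. The submitters' processing notes and methods name SOAPnuke 2.2.5, Bowtie2 2.2.5, RSEM 1.2.12 and GRCh38. The deposited unit was FPKM per gene and library, computed by the authors with RSEM. DESeq2, named in the same notes, was not used here, since FPKM are not counts.

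Groups came from the sample labels. A limma model (version 3.58.1, R 4.3.3) with a variance trend was fitted to log2(FPKM + 0.1) of the 11533 of 17939 genes that averaged 1 FPKM or more, siCDK12 minus siCtrl. Its two-sided p-values were adjusted by Benjamini-Hochberg across those genes, with a threshold of 0.05. The pseudocount understates changes of low genes. The steps were tested on simulated data. The study's methods state a single depth for all samples, but the depth each library reached could not be recovered from FPKM, so no counting error is given. Errors are SD over 3 libraries or the SE of the fit. Positions were read from RefSeq (GRCh38.p14), in which 17908 gene IDs were found. Plots used Python 3.11.15 and matplotlib 3.10.9.

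The members and gene lists were chosen with earlier results of these data known. Named genes were the 4 members, SLC44A5, CDK12, the measured genes of the other choline carriers, the CDP-choline route and thiamine handling, up to 3 called genes with the smallest p of each other list, called neighbours, and the 3 likest profiles of members with an absolute log2 fold change of at least 0.5. Some genes that this rule takes are not reported here, though list counts include them. Genes outside this rule are named where a count or list is described. Alternatives were pseudocounts of 1 and 0.01, no filter, a mean of at least 5 FPKM, equal-sum, median-ratio and quantile scaling, a fit without trend, a robust fit, a replicate block and leaving out each library.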

Additional observations from a re-analysis of the deposited data

How the results depend on the processing

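CDK12, the tested genes of the choline and thiamine lists and the called neighbours did not change direction while past the threshold. The members SLC44A1, SLC44A2, SLC44A3 and SLC44A4 kept their sign in every alternative. Cell type markers, SLC37A1, IQCG, NPIPB9, DENND6B, KRTAP5-2 and ENO3 were not followed under the alternatives. SLC44A3 was -0.94 with a pseudocount of 1 FPKM, against -1.61 at 0.1, and SLC44A4 was 0.16 with a pseudocount of 1 and 0.83 with a pseudocount of 0.01, against 0.60; both genes are low, and a larger pseudocount shrinks low values by construction. Leaving out 1 library at a time gave -1.81 to -1.37 for SLC44A3 and 0.51 to 0.72 for SLC44A4. Other solute carrier genes called lower numbered 21 with a mean of at least 5 FPKM, where fewer genes are tested, against 32. Genes called higher among all tested numbered 1193 to 1607 when 1 library was left out, against 1853, with the lowest count without siCDK12 replicate 3. The split of calls moved with scaling, from 1853 higher and 1416 lower as reported (56.7% higher) to 1377 and 1672 with median-ratio scaling (45.2%) and 1552 and 1592 with quantile normalization (49.4%). Of the alternative values for single tested genes of these lists and the called neighbours, 681 kept their side of the threshold, 21 lost the call and 7 gained it. The gains were all in list genes that are not named above.

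Replicate numbers gave no pairing: deviations of same-numbered libraries correlated at -0.0029, 0.0197 and -0.0279, and no library correlated best with its own number. With a replicate block, 1550 genes were called higher and 1208 lower, 5 of the choline and thiamine genes rose and 5 fell, and the SMPD3 call was lost (limma adjusted p = 0.0549). The depth of each library was not recovered from the rounded values, which limits SLC44A4 and, with siCDK12, SLC44A3 most.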
